A study of Mus musculus with 1920 samples.

Results

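A set of 10 genes of the bone morphogenetic protein (BMP) pathway were followed in single Lgr5-high intestinal stem cells (ISCs) of young and aged mice. The 10 were given as a list of symbols and found among the 55471 gene identifiers of the count table: the receptors Bmpr1a, Bmpr2 and Acvr1, the signal transducers Smad1 and Smad5, the coreceptor Rgmb, the response genes Id1, Id2 and Id3, and the pseudoreceptor Bambi. All 10 passed the filter on low counts in each comparison. The cells came from small-intestinal crypts of 3 young and 4 aged mice of the line B6.129P2-Lgr5tm1(cre/ERT2)Cle/J, in which the Lgr5 gene drives green fluorescent protein and a tamoxifen-inducible Cre. Young and aged mice thus share this knock-in allele, and cells were sorted for a high fluorescence signal after staining with 7-AAD and Annexin V. The labels give these mice as young or old, without an age in weeks. Full-length cDNA of each cell was amplified by a Smart-seq2 approach without molecular identifiers, so several reads can stem from the same molecule.

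BMP ligands are secreted by mesenchymal cells around the crypt and by some epithelial cells. They bind a pair of serine/threonine kinase receptors, a type I receptor (Bmpr1a, Acvr1) and a type II receptor (Bmpr2), which phosphorylate Smad1 and Smad5. These pair with Smad4 and switch on target genes, of which the Id genes are the best known. Id proteins lack a DNA-binding domain and hold E proteins in inactive dimers. In the intestine BMP signalling is high in the villus and restrained at the crypt base by secreted antagonists from the mesenchyme, and it limits stem cell self-renewal and promotes differentiation.

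Of 1920 cells, the 1836 in which 1000 genes or more were detected entered the comparisons. They held between 49447464 and 134408884 reads per mouse, with a median of 305492 reads and 9398.5 detected genes per cell. Each cell was also assigned to the cell type whose marker list had the highest mean among 9 lists, none of which holds a member. ISC markers led in 1570 cells (85.5%), Paneth markers in 119, enterocyte markers in 81, goblet markers in 49 and tuft markers in 12. Endothelial markers led in 3 cells, all of aged mouse 3, and enteroendocrine markers in 2. No cell was led by the stromal or the immune list. The summed stromal markers lay between 0.0518 and 0.946 CPM (reads of a gene scaled to a common library total) in the 7 mice, so the mesenchyme was at or near 0. Not all sorted cells were thus led by ISC markers, and the shares led by them ran from 74.3% in aged mouse 4 to 94.1% in young mouse 2. Whether the remaining wells held other cell types or more than 1 cell was not tested.

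Per length of annotated exons, Rgmb and the Id genes were at the top of the list, where levels are CPM per kilobase of exon. Rgmb, a glycolipid-anchored coreceptor for BMP ligands, had a median over the 7 mice of 69.5 CPM per kilobase of exon (range 37.6 to 80.7), and Id1 had 56.8 (44.7 to 78.2). The order of these 2 was not fixed, since Rgmb was above Id1 in 5 of 7 mice. Id3 followed at 33.9 (20.8 to 41.5), below Id1 in every mouse and with no overlap of the ranges. Smad1 at 12.0 and Id2 at 9.64 overlapped each other, as did Smad5 at 7.88 and Bmpr1a at 6.82. The type II receptor Bmpr2 (1.35) lay below Bmpr1a in all 7 mice without overlap. Bambi (1.07) and Acvr1 (0.764) were lowest, and their ranges overlapped with each other.

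On GRCm38 the annotated genes span chr14:34410734-34503341 (Bmpr1a, minus strand), chr1:59763400-59879014 (Bmpr2, plus), chr2:58388644-58567157 (Acvr1, minus), chr8:79338395-79399518 (Smad1, minus) and chr13:56703010-56742377 (Smad5, plus). Rgmb spans chr17:15803188-15831039 (minus), Id1 chr2:152736251-152737410 (plus), Id2 chr12:25093799-25097140 (minus) and Id3 chr4:136143497-136145755 (plus). Antisense genes overlap Bmpr1a and Acvr1 and held 178 and 64 reads in all 1920 cells, against 27106 and 2247 for the members themselves in the kept cells. Genes on the same strand overlap Bmpr2 (Gm38125, 575 reads in all cells) and Smad5 (3 genes with 65, 60 and 19 reads).

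The transcription start regions of 8 members were matched in RefSeq (GRCm38.p6), of which the 250 bases before each start were searched. The GC-rich motif GGCGCC, which BMP-activated Smads can bind, was present in 5 of the 12 regions of these 8 genes, against 9.59% of 32851 mouse start regions of the same length. The 12 regions had a median GC content of 63.8% (50% to 85.6%) and all start regions one of 52.4%, and the share was not matched for this. Smad5 and Rgmb have 3 listed starts each, of which 1 held the motif. The Id3 region held no GGCGCC and had a copy each of CAGAC, the Smad box, and of GTCTG, its reverse complement. Either of these was also found once in a region of Smad5 and once in a region of Rgmb, thus in 3 of the 12 regions, against 42.2% of all start regions. The Id3 matches are shown because GGCGCC is not in that region. None of the 12 regions of these 8 members held the cyclic AMP response element TGACGTCA, present in 1.55% of start regions. No region of Id1 or Bambi was searched for any motif. The E-box CANNTG, the site of the E proteins that Id proteins sequester, occurred in Id2, in 1 of 3 Rgmb regions and in 2 of 3 Smad5 regions, against 66.2% of all. These 2 Smad5 regions overlap and their match is the same site. Of the 3 Rgmb regions 2 overlap too, so the 12 regions are not all separate sequences. The searches covered both strands, no matches of different motifs overlapped each other, and a match of letters is not a bound site. The stretches of 30 bases around the matches are given because these are the genes whose levels are compared, with the motif in capitals.
Bmpr1a, chr14:34502727-34502756, minus strand, inside the annotated gene: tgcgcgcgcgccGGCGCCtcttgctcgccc
Bmpr2, chr1:59764162-59764191, plus strand, in an annotated UTR: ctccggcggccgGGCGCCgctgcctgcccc
Smad5, chr13:56703021-56703050, plus strand, in an annotated UTR: ccccggcgagcgGGCGCCgagcgcttgtcc
Rgmb, chr17:15831069-15831098, minus strand, upstream of the annotated gene: ggcggcgtgaaaGGCGCCtttgtgcaagcc
Id2, chr12:25096306-25096335, minus strand, inside the annotated gene: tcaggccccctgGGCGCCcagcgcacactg
Id3, chr4:136143643-136143672, plus strand, in an annotated UTR: tgtcctcggcgtCAGACcagcctaaggaag
Id3, chr4:136143742-136143771, plus strand, in an annotated UTR: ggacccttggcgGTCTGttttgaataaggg

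The first comparison asked whether the pathway differed between young and aged ISCs. Counts were summed per mouse and tested over 20957 genes with edgeR's quasi-likelihood test on TMM-scaled counts. None of the 10 members passed a Benjamini-Hochberg adjusted p of 0.05, where 0% of all genes did and 1098 genes had an unadjusted p under 0.05. The members' median log2 fold change was -0.0028, beside 0.0113 over all genes. In no member did young and aged mice separate, whereas 5.64% of all tested genes had groups that did not overlap. The exact permutation test over the 35 divisions of 7 mice cannot go below a two-sided p of 0.0571, and the members' exact p-values for CPM lay between 0.229 and 0.971.

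**Figure D1:**
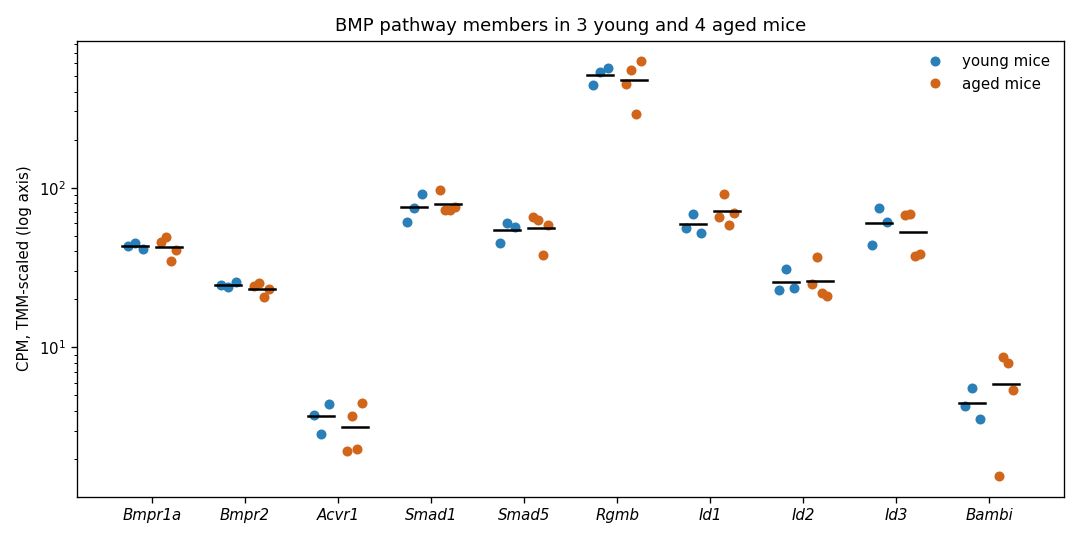
TMM-scaled CPM of the 10 members (log axis) in 3 young (blue) and 4 aged (orange) mice, each point a mouse and each bar the group mean. Young and aged mice overlap for every member, and Bambi and Acvr1 lie lowest.

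Among the receptors, Bmpr2 was the most even member. It lay at 24.6, 23.7 and 25.6 CPM in young mice 1 to 3 and at 24.2, 25.3, 20.5 and 23.3 CPM in aged mice 1 to 4, so only aged mouse 3 was below the rest. The change was -0.08 ± 0.16 on the log2 scale (SE; 95% interval -0.44 to 0.27). Bmpr1a, the main type I receptor of the intestine, ranged from 34.8 CPM in aged mouse 3 to 49.2 in aged mouse 2 and changed by -0.03 ± 0.16 (interval -0.39 to 0.34). Acvr1, the other type I receptor, was thinly read, at 2.25 to 4.44 CPM, and its change was -0.23 ± 0.35 (interval -1.01 to 0.55).

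Neither transducer was called for age, and the levels of both differed between mice. Smad1 had 61.3, 75.1 and 91.7 CPM in young mice and 96.7, 72.7, 72.8 and 75.3 CPM in aged mice, with aged mouse 1 at the top. Its log2 change was 0.06 ± 0.18 (interval -0.35 to 0.47). Smad5 had a range of 37.9 to 65.6 CPM over the 7 mice and changed by 0.06 ± 0.21 (interval -0.41 to 0.52). For Rgmb the young mice had 442, 533 and 558 CPM and the aged mice 444, 543, 288 and 619 CPM. Aged mice included both the lowest and the highest value, and the change was -0.11 ± 0.24.

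The Id genes, the readout of the pathway, did not move together with age. Id1 had 56.3, 68.6 and 51.8 CPM in young mice and 65.9, 90.8, 58.1 and 68.9 CPM in aged mice. Aged mouse 2 was highest and young mouse 3 lowest, and the means of 58.9 ± 8.68 (SD, n = 3) and 70.9 ± 14.0 (SD, n = 4) gave an exact permutation p of 0.229 and a log2 change of 0.27 ± 0.19. Id2 had 22.7, 30.9 and 23.5 CPM in young and 24.9, 36.5, 21.9 and 21.1 CPM in aged mice, a change of 0.02 ± 0.23. Id3 had 43.9, 74.2 and 60.7 CPM in young and 67.6, 68.4, 37.3 and 38.2 CPM in aged mice. The aged mice fell into a high pair and a low pair on either side of young mouse 1, and the change was -0.17 ± 0.28. Bambi, which resembles a type I receptor but lacks the kinase domain and dampens signalling, had 4.28, 5.58 and 3.56 CPM in young and 1.57, 8.66, 7.93 and 5.42 CPM in aged mice. Its 5.53-fold range was the widest of the 10, and its interval of -0.73 to 1.52 was the widest too.

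**Figure D2:**
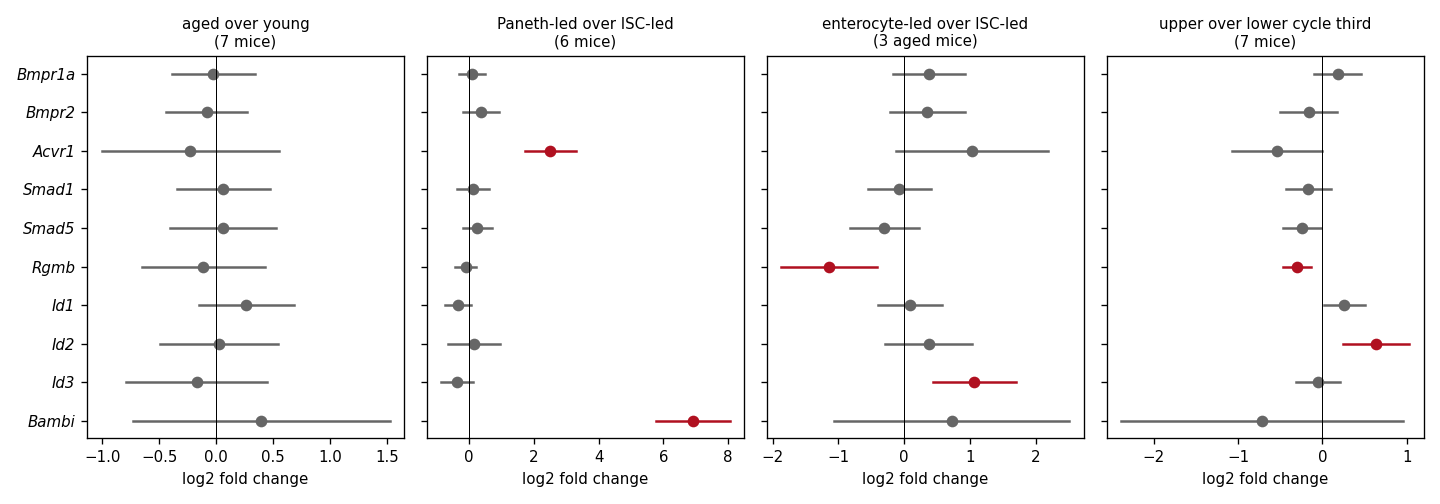
Log2 fold changes (points) with 95% intervals (lines) of the 10 members in 4 comparisons tested with edgeR, with red marking an adjusted p under 0.05. No member is red for age, Acvr1 and Bambi are red for Paneth-led cells, Rgmb and Id3 for enterocyte-led cells, and Rgmb and Id2 for high-cycle over low-cycle cells; the x axes differ in scale.

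The level of the Id genes differed between cells of a single mouse. The cell titles end in a code, read here as the sequencing lane because the methods put 384 cells on a lane; the labels do not call it that. By this code, cells of young mouse 2 were split over a lane shared with aged mouse 1 (184 cells) and a lane shared with aged mouse 2 (186 cells). In the first of these lanes they had 57.7 CPM of Id1, 25.1 of Id2 and 63.2 of Id3, scaled by library size, and in the lane of aged mouse 2 they had 83.6, 38.4 and 89.9. The 3 log2 differences within this mouse were 0.53, 0.61 and 0.51, above the 3 estimated age changes. Bambi had a larger difference of 0.86, Bmpr2 and Acvr1 had 0.38 and 0.37, and the other 4 members lay between -0.09 and 0.05. Of 7602 genes with a mean of at least 20 CPM in young mouse 2, 1.60% were higher by 0.5 or more in the lane of aged mouse 2. Aged mouse 2 itself had the highest Id1 and Id2 of the 7 mice. The summed list of 16 immediate early genes was 3176 CPM in the cells of young mouse 2 in that lane and 2661 CPM in its other cells, and the summed Paneth list was 10818.5 against 8206 CPM. Their part in the Id difference was not tested, and lane, plate and sorting order cannot be told apart here. Compared within a shared lane, Id1 was 0.21 (aged mouse 1 over young mouse 2), 0.11 (aged 2 over young 2) and -0.02 (aged 3 over young 1) on the log2 scale. Id3 was 0.12, -0.40 and -0.30, and Id2 lay within -0.12 and 0.01 in the 3 lanes. Aged mouse 4 and young mouse 3 each filled a lane alone and gave no such value. With the inferred lane as a block no member passed the threshold. In that fit young mouse 2 entered as 2 samples, 1 for each of its lanes, although it is a single mouse. Aged mouse 4 and young mouse 3, alone in their lanes, added nothing to its age difference, which rested on the 3 shared lanes.

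**Figure D3:**
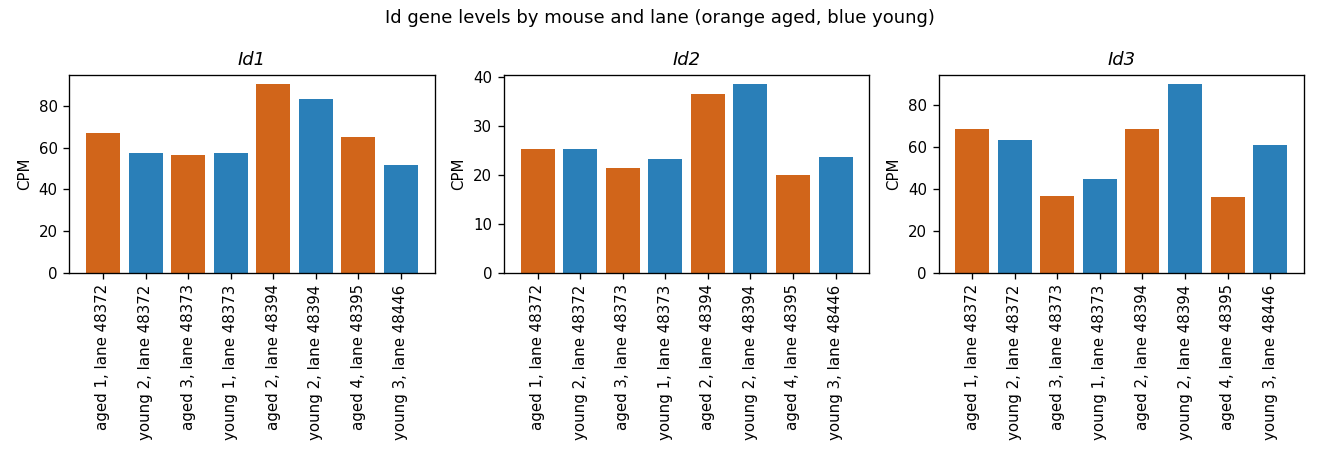
CPM of Id1, Id2 and Id3, scaled by library size, by mouse and lane (bars from 0; orange aged, blue young; a bar is the sum over that mouse's cells in that lane). The 2 bars of the lane shared by aged mouse 2 and young mouse 2 are the highest for Id1 and Id2, and the bar of young mouse 2 in that lane is the highest for Id3.

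The study asked about heterogeneity between cells, so the share of cells with a read and the spread over cells were compared per mouse after each cell was thinned to 100000 reads (1732 cells, 104 being too shallow). Rgmb was read in 98.9% of cells, Smad1 in 90.4%, Bmpr1a in 84.9%, Smad5 in 81.9%, Id1 in 70.9%, Id3 in 68.0%, Bmpr2 in 63.0% and Id2 in 56.9%. Acvr1 was read in 16.5% and Bambi in 11.4%. The share for Rgmb was 99.5 ± 0.538% in young (SD, n = 3) and 98.5 ± 0.526% in aged mice (SD, n = 4), without overlap and at the smallest exact permutation p, 0.0571, where 6.69% of all tested genes had shares that did not overlap. With only ISC-led cells, or with unthinned counts, the Rgmb shares overlapped. Without thinning the shares of Id1 and Id2 were 75.7% and 66.1%.

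Reads of the Id genes were unevenly spread over cells. In the 7 mice, the 10% of cells with the most Id2 reads held 36.4% to 52.9% of them, and for Id1 and Id3 the ranges were 36.0% to 47.3% and 36.0% to 45.9%. The same share of cells held 20.8% to 28.8% of Rgmb reads, 26.0% to 35.7% of Smad1 reads and 37.1% to 45.7% of Bmpr2 reads. Bmpr2 thus overlapped with the Id genes. Acvr1 and Bambi, read in the fewest cells, were more uneven than the Id genes, at 73.0% to 89.5% and 85.9% to 100%. The SD of log2(CPM + 1) over cells was lower in aged mice for Id2. It was 2.66, 2.80 and 2.68 in young mice and 2.61, 2.55, 2.54 and 2.53 in aged mice, without overlap and at the smallest exact permutation p of 0.0571, where 6.98% of all tested genes had a spread that did not overlap. It overlapped in unthinned counts. For Rgmb the SD was 1.43, 1.21 and 1.52 in young and 1.46, 1.54, 1.82 and 1.77 in aged mice (exact permutation p 0.114), and in ISC-led cells alone the difference in means was 0.08 in place of 0.26. In each measure 1 of 10 members thus separated the groups, a share near that of all genes. With at least 5 reads required, Bmpr2 was read in 20.3 ± 0.911% of cells in young (SD, n = 3) and 15.2 ± 1.60% in aged mice (SD, n = 4), without overlap and with an exact permutation p of 0.0571, where 5.55% of all tested genes did not overlap.

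The clearest difference in the whole list was between cells led by different marker lists. Paneth cells are the secretory neighbours of ISCs at the crypt base, and 6 mice had at least 10 cells led by Paneth markers (112 cells; young mouse 3 had too few and was left out). Compared with ISC-led cells of the same mouse, 2 of the 10 members were called in edgeR, Bambi and Acvr1, both higher, where 11.9% of 19604 genes were called. Bambi had 0.274 and 2.07 CPM in ISC-led cells of young mice 1 and 2 and 0.0978, 1.73, 0.996 and 1.55 CPM in those of aged mice 1 to 4. In Paneth-led cells of the same mice it had 98.2 and 119.5 CPM and 116, 71.7, 172 and 70.0 CPM. Every Paneth-led value lay above every ISC-led value, a log2 difference of 6.92 ± 0.53 (adjusted p 1.47e-07). Acvr1 had 2.51 and 1.81 CPM in ISC-led cells of the young mice and 1.45, 1.95, 1.05 and 2.91 CPM in those of the aged mice. It had 7.93 and 13.5 CPM and 8.42, 9.77, 10.1 and 11.1 CPM in their Paneth-led cells, again without overlap, a log2 difference of 2.50 ± 0.37 (adjusted p 0.000296). Both genes were higher in 6 of 6 mice.

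**Figure D4:**
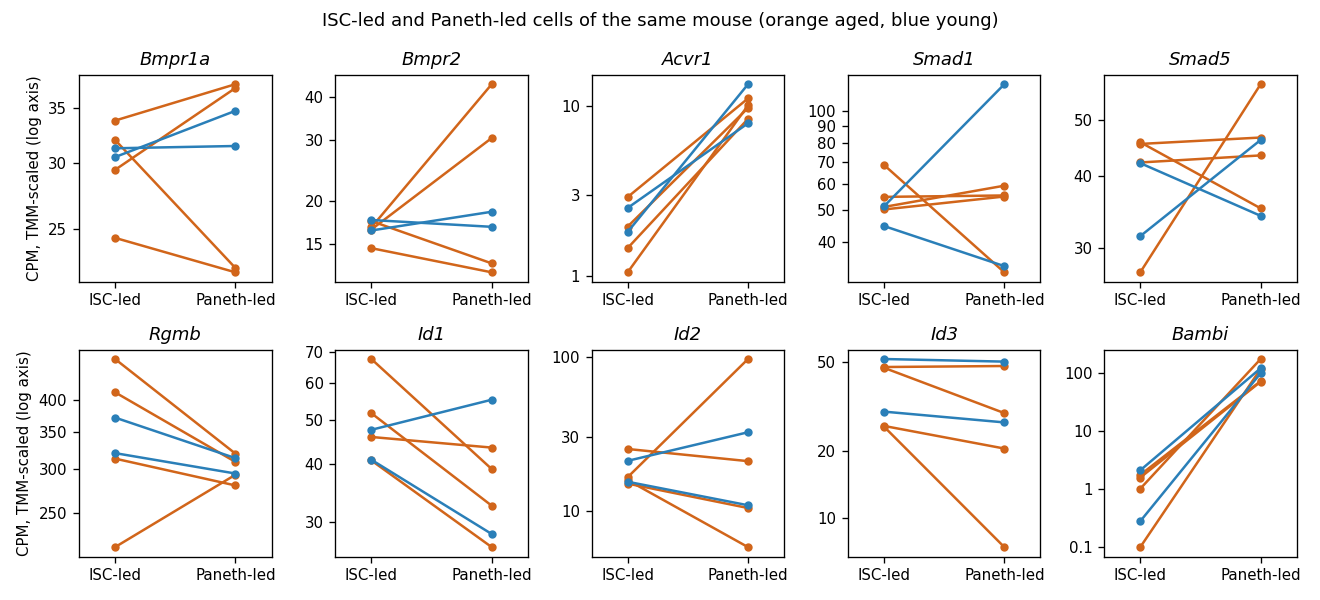
TMM-scaled CPM (log axes with a range of their own) of each member in ISC-led and Paneth-led cells, with a line for each of 6 mice (orange aged, blue young). The lines of Acvr1 and Bambi all rise, and those of the other 8 members go in both directions.

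Of all Bambi reads, 64.7% were in the Paneth-led cells, which were 6.48% of cells. After thinning, 75 of 100 Paneth-led cells had a Bambi read (75%, 95% Wilson interval 65.7 to 82.5) against 110 of 1509 ISC-led cells (7.29%, 6.08 to 8.71). The share in enterocyte-led cells was 6.15% (2.42 to 14.8). These intervals pool the cells of all mice and leave out the spread between mice. Lyz1, a Paneth antimicrobial enzyme, was read in 81.3% of ISC-led cells. Bambi reads per 1000 Lyz1 reads were 7.63 in ISC-led and 1.22 in Paneth-led cells, a ratio that differed between the classes. For Acvr1 the shares were 41% (31.9 to 50.8) of Paneth-led and 13.7% (12.1 to 15.5) of ISC-led cells. The Acvr1 share was 35.4% (24.9 to 47.5) in enterocyte-led and 29.5% (18.2 to 44.2) in goblet-led cells. Both intervals overlapped with that of Paneth-led cells, so a share above that of ISC-led cells was not particular to them. Of 12 tuft-led cells, 1 had an Acvr1 read. Across all cells of a mouse the genes most like Bambi were Clps, Defa26, Ccl6, AV064505 and Selenom, with a median Spearman rho over the 7 mice of 0.467 to 0.362. Defa26 is a Paneth defensin. Within ISC-led cells the medians of these 5 were between -0.0512 and 0.0524.

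The other 8 members were not called in Paneth-led cells. Rgmb had a median over the mice of 302 CPM there and 347 in ISC-led cells, a difference of -0.11 ± 0.15 (interval -0.43 to 0.21), and Id1 was lower in 5 of 6 mice (-0.35 ± 0.19; adjusted p 0.250). Paneth products filled much of these libraries, the 20 leading genes holding 63.0% of reads in Paneth-led and 28.2% in ISC-led cells. Without a scaling factor for this, the median difference of all genes went from -0.16 to -1.30, and all 10 members were called where 60.7% of all genes were, most of them lower, with 8 members lower and with Bambi (5.84) and Acvr1 (1.36) still higher. The difference of Id1 was then -1.50 and that of Id3 -1.53. Paneth-led cells kept Lgr5 reads in 95 of 100 cells, with a mean over thinned cells of 106 CPM against 415 CPM in ISC-led cells, and a median of 8857 detected genes against 9416. Whether some wells held more than 1 cell was not tested.

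Other genes of the pathway were checked from lists of related genes. In Paneth-led cells Acvr1c, an activin-type receptor, was higher by 2.46, the only 1 of 9 tested genes of the TGF-beta and activin branch to be called. Of 15 tested intracellular mediators and inhibitors, Map3k7 (0.92) and Smurf1 (1.67) were higher and Fkbp1a (-0.58) lower. Among 6 tested ligands Bmp7 was higher (0.97) and Bmp3 lower (-0.59). Fstl3, a secreted antagonist, was higher by 1.86 and Tcf12, an E protein and Id partner, by 1.75. These directions are from TMM-scaled counts, and no other receptor or coreceptor of 6 tested was called.

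Enterocyte-led cells had at least 10 cells in aged mice 2, 3 and 4 alone (64 cells), so this comparison holds no young mouse. Of the 10 members 2 were called, Id3 higher and Rgmb lower, where 15.7% of 18519 genes were called. Id3 had 60.2, 31.6 and 32.2 CPM in the ISC-led cells of these mice and 94.7, 46.3 and 111 CPM in their enterocyte-led cells, higher in 3 of 3 mice (1.07 ± 0.29; adjusted p 0.0267). Rgmb had 525, 267 and 592 CPM in the ISC-led and 151, 233 and 195 CPM in the enterocyte-led cells, lower in 3 of 3 mice (-1.14 ± 0.33; adjusted p 0.0374). The enterocyte-led values of Rgmb lay below every ISC-led value, and those of Id3 overlapped with them. Id1 (0.09 ± 0.22) and Id2 (0.37 ± 0.30) were not called. Acvr1 was about 2-fold higher but not called (1.03 ± 0.52; adjusted p 0.219).

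These 2 calls rested on 3 mice. Without aged mouse 4 the adjusted p of Id3 was 0.301 and of Rgmb 0.237, without aged mouse 2 that of Rgmb was 0.292, and without aged mouse 3 Id2 was called too. Counted by library size alone, Id3 fell to 0.63 with an adjusted p of 0.118. In the same cells 4 of 15 tested intracellular mediators and inhibitors were higher: Smad7 (1.81), an inhibitory Smad, Skil (1.94), Tob1 (0.88) and the phosphatase Ppm1a (0.79). Of 6 tested ligands Bmp8a (3.07) was higher, as was Nbl1 (5.14) of 4 tested antagonists, and the E protein Tcf3 was lower (-1.02). Bmp8a and Nbl1 were thinly read, at 0.73 to 2.51 and 0.12 to 2.52 CPM over all cells of a mouse.

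The cells of each mouse were then ranked by a list of 18 G2 and mitosis genes and divided into 3 equal groups. Between the group with the highest list values (high-cycle) and that with the lowest (low-cycle) in all 7 mice, 2 members were called, Id2 higher and Rgmb lower, where 13.8% of 20200 genes were called. Id2 had 15.5, 26.0 and 19.9 CPM in low-cycle cells of young mice 1 to 3 and 36.7, 33.2 and 30.9 CPM in high-cycle cells. In aged mice 1 to 4 it had 13.8, 32.7, 18.6 and 16.0 CPM in low-cycle and 32.2, 46.1, 17.7 and 21.3 CPM in high-cycle cells. It was higher in 6 of 7 mice, aged mouse 3 being the exception, and its difference was 0.64 ± 0.18 (adjusted p 0.0386). Rgmb was lower in 7 of 7 mice, from a median of 595 to 472 CPM (-0.30 ± 0.07; adjusted p 0.0243). Lgr5 itself was lower by 0.78 ± 0.09 between these groups.

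The other members were not called between these groups. Id1 was higher in 6 of 7 mice (0.26 ± 0.11; adjusted p 0.164) and Id3 was not (-0.05 ± 0.12). Acvr1 was lower in 7 of 7 mice with an adjusted p of 0.183 (-0.54 ± 0.24). The call of Id2 was lost without any mouse other than aged mouse 3, at adjusted p-values of 0.0720 to 0.0884. That of Rgmb was lost without aged mouse 2 (0.0518), young mouse 2 (0.0708) or young mouse 3 (0.0516). Bmp2, a ligand thinly read at 0.45 to 1.87 CPM over all cells of a mouse, was higher by 1.60. Bmp7 (-0.69), the target Atoh8 (-0.69) and the E protein Tcf4 (-0.51) were lower.

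Across the cells of a mouse the 3 Id genes went together. Spearman's rho of Id1 and Id3 had a median of 0.474 over the 7 mice (0.303 in young mouse 1 to 0.528 in aged mouse 1). It was 0.332 (0.311 to 0.365) for Id2 and Id3 and 0.301 (0.235 to 0.340) for Id1 and Id2. Among cells with an Id1 read, 69.8% to 85.5% had an Id3 read, and among cells without it 33.3% to 50% did, a higher share in 7 of 7 mice. Among 12075 genes read in at least 10% of cells of every mouse, Id3 was first for Id1 and for Id2, and Id1 was first for Id3. These are values across the cells of a mouse, with no test. The cells of young mouse 2 came from both of its inferred lanes, between which its Id levels differed. With ISC-led cells alone the 3 medians were 0.470, 0.315 and 0.287.

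**Figure D5:**
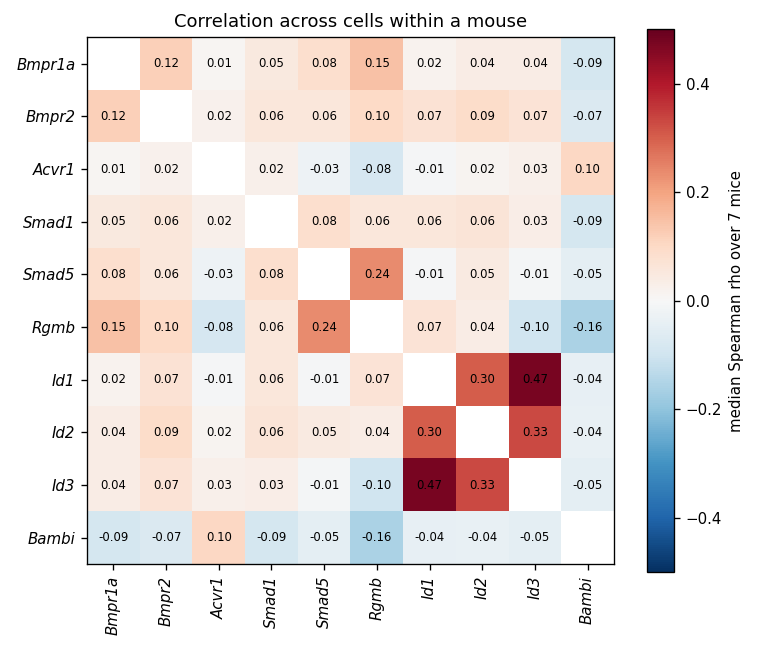
Median over 7 mice of Spearman's rho across thinned cells for each pair of the 10 members. The 3 Id genes form the block of highest values (0.30 to 0.47), and the receptors and transducers have values near 0 with them.

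The receptors and transducers had little relation to the Id genes at the level of a cell. The pair of Smad5 and Rgmb had the next highest median (0.236; 0.0785 to 0.469), and Bmpr1a with Rgmb had 0.146. The remaining genes most like Id1 were Fos, Junb, Hbegf and Ier2 (medians 0.356 to 0.328), of which Fos, Junb and Ier2 are immediate early genes. The mean of the 16 immediate early genes had a median rho of 0.367 with Id1, 0.272 with Id3 and 0.165 with Id2, positive in 7 of 7 mice. The part of this list in the Id levels was not tested. For Id3 the next genes were Krt8, Ldha and Lypla1 (0.328 to 0.284), and for Id2 they were Ucp2, Fancd2 and Naprt (0.246 to 0.217).

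Rgmb varied with stem cell genes. Its nearest genes were Tns3 (median rho 0.594), Eef2 (0.571), the stem cell receptor Lgr5 (0.545), the stem cell marker Olfm4 (0.544) and Ivns1abp (0.528). In ISC-led cells alone the values were lower but stayed positive in every mouse, at a median of 0.471 for Lgr5 (0.350 to 0.721) and 0.412 for Tns3. With the immediate early list Rgmb had a median rho of -0.00265.

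Most ligands of the pathway, though not Bmp3, were thinly read in these sorted cells. Of 13 ligands, 7 had a median below 0.1 CPM, and Bmp3 was the most abundant by CPM at 101.3 to 131 CPM, followed by Bmp7 at 15.9 to 26.4. The antagonists Nog and Grem1, made by the mesenchyme, were at 0 reads in all 7 mice, as was the type I receptor Bmpr1b. Of 13 secreted antagonists 9 had a median below 0.1 CPM. Others were read, with Twsg1 at 31.1 to 45.0, Fstl1 at 8.88 to 32.9 and Fstl3 at 2.06 to 7.79 CPM. Smad4, the shared partner of Smad1 and Smad5, had 43.3 to 70.7 CPM and changed with age by -0.01. No gene of the 6 lists was called for age. Bmp4 had 0.291 to 1.60 CPM in young and 0 to 0.0881 in aged mice, without overlap, and missed the threshold (adjusted p 0.380 in edgeR). Bmp3 and Tcf4 were the other genes of the lists whose groups did not overlap, 3 of 47 tested genes of the lists (6.38%), near the share of all genes given above. Stromal markers were near 0 in all mice, so whether the Bmp4 reads came from epithelial cells was not tested.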

How the data were processed

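The authors sorted single Lgr5-high cells, sequenced them single-end, aligned the reads to GRCm38 with HISAT2 and checked them with Picard. The submitters' processing notes also name HTSeq. The tables deposited hold raw read counts, as whole numbers per gene and cell with no normalization. Annotation and strand setting were not given in the sources used here, so reads of Bmpr1a and Acvr1 and of the annotated genes antisense to them cannot be told apart. Of 55471 identifiers, 55230 matched GENCODE M21, and the other 241 held 0.00278% of counts.

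Each cell was assigned to its mouse by its title. The last code of the title was read as the sequencing lane, an inference from the number of cells per lane in the methods. Nothing in the labels pairs young with aged mice. Cells with fewer than 1000 genes detected were left out, and no doublet caller was run. Counts were summed per mouse, or per mouse and class with at least 10 cells of each, and tested with edgeR 4.0.16 (quasi-likelihood, TMM, filterByExpr, Benjamini-Hochberg, threshold 0.05) in R 4.3.3. Class and cycle comparisons had the mouse as a term. A cell was led by the marker list with the highest mean log2(CPM + 1). Since classes and cycle groups were chosen on reads of the same cells, these tests compare sets of cells, with the mouse as replicate. DESeq2 1.42.0 and limma voom 3.58.1 were alternatives. Values per mouse had exact two-sided permutation tests in scipy 1.17.1, and cells thinned to 100000 reads served shares, spread and correlations. Steps were tested on simulated data.

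The members and gene lists were chosen with earlier results of these data known. Named beside the members were genes of the lists that passed the threshold or did not overlap between ages, the 5 genes with the highest median rho for Id1, Id2, Id3, Rgmb and Bambi, and genes a result turns on. Other alternatives were RLE scaling, no filter, all cells, at least 2500 genes (1808 cells), equal weights, ISC-led cells alone, a lead of 0.5 between lists, at least 5 reads, blocks, and each mouse left out. Library size only and RLE scaling in the class and cycle comparisons were added after seeing the data.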

Additional observations from a re-analysis of the deposited data

Results flagged for a closer look

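In 2 of 30 sets of values from the 4 aged mice (CPM, share of cells and spread of the 10 members), a mouse stood apart by Dixon's criterion, which chance meets in about 1 of 20 such sets. Smad1 was at 96.7 CPM in aged mouse 1, with the other 3 aged mice at 72.7 to 75.3. The share of cells with an Id2 read was 72.1% in aged mouse 2, with the other 3 aged mice at 55.1% to 56.9%.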

How the results depend on the processing

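The number of members called for age stayed at 0 under every alternative run. Over all genes it was 0 in edgeR, 177 in DESeq2, 2 in limma voom, 22 with no filter on low counts, 15 when thinned, 18 with cells weighted equally, 1 with the lane as a block and 0 to 8 without a mouse (8 without aged mouse 1). The lane block entered young mouse 2 as 2 samples, 1 for each of its lanes. With the mouse number as a replicate block 2 genes and 0 members were called. Mice of the same number deviated together in 1 of 3 pairs (r of -0.12, 0.19 and -0.23), where pairs of different numbers ran from -0.17 to 0.30. Whether mice of the same number share more than a number was not tested.

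For age the direction of small changes turned: Smad1 to -0.044 (thinned) and -0.12 (equal weights), Smad5 to -0.077 (equal weights) and -0.023 (lane block), Id2 to -0.050 (limma voom), -0.014 (thinned), -0.032 (equal weights) and -0.00040 (lane block), and Bambi to -0.094 (ISC-led cells) and -0.0097 (lane block). Without a mouse, changes ran from -0.10 to 0.066 for Bmpr1a, -0.057 to 0.21 for Smad1, -0.040 to 0.21 for Smad5, -0.26 to 0.069 for Rgmb, -0.18 to 0.16 for Id2 and -0.34 to 0.0041 for Id3. The remaining members kept their sign, with ranges of -0.12 to -0.019 for Bmpr2, -0.43 to -0.080 for Acvr1, 0.12 to 0.37 for Id1 and 0.15 to 0.71 for Bambi. Members without overlap in CPM were 0 to 1 (Id1, without young mouse 2). The share of all genes without overlap in CPM was not counted with a mouse left out, so this count cannot be judged. Members without overlap in share of cells were 1 to 2 (9.41% to 17.3% of all genes). In spread they were 1 to 5 (9.57% to 17.5% of all genes), with 5 without aged mouse 1, where 17.4% of all genes did not overlap. With unthinned counts the latter pair of counts was 0, and with ISC-led cells the share gave 0.

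Members called in enterocyte-led cells were 1 with library size only (25.5% of all genes), 1 with a lead of 0.5 (12.1%) and 0 to 3 without a mouse (8.65% to 28.5%). There, library size only gave Bmpr1a -0.058, Bmpr2 -0.083, Id1 -0.35 and Id2 -0.077, the lead of 0.5 gave Id1 -0.010, thinning gave Smad1 0.18, and Id1 ran from -0.0028 to 0.18 without a mouse. In Paneth-led cells 10 members were called with library size only, as were 60.7% of all genes, where Bmpr1a was -1.05, Bmpr2 -0.80, Smad1 -1.02, Smad5 -0.90 and Id2 -0.995. Rgmb was 0.021 in DESeq2 and 0.021 with RLE scaling, and Id2 -0.23 with the lead of 0.5 and -0.25 when thinned. Without a mouse Smad1 ran from -0.11 to 0.32 and Id2 from -0.30 to 0.42, while Bambi stayed between 6.47 and 7.29 and Acvr1 between 2.34 and 2.65. Between high-cycle and low-cycle cells 3 members were called when thinned (Id1 added; 27.8% of all genes) and 0 to 3 without a mouse (8.71% to 13.5%), and Bambi turned to 1.15 in ISC-led cells. Some settings also changed the mice compared. The thinned Paneth-led comparison held 4 mice, without aged mouse 1, young mouse 1 and young mouse 3. The enterocyte-led comparison with a lead of 0.5 held 2 mice, aged mice 3 and 4. The cause of these shifts was not tested, apart from the scaling, whose effect is by construction. Acvr1 and Bambi had the fewest reads of the 10 members, 2247 and 3301 in all kept cells, and the part of depth in their intervals was not tested.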
